A study of Mus musculus with 10 samples.

Results

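The interferon response genes described here are 36 mouse genes that cells switch on, or use to signal, when interferon reaches them. They were taken from a list of gene names, and every probe on the array whose name, or whose current symbol through its accession, is on that list was used. Of the 36 genes, 35 were measured, by 56 probes, among 27670 genes on the array. Xaf1, a pro-apoptotic interferon target, had no probe. Lung RNA came from 5 mice exposed to cigarette smoke and 5 exposed to room air, 1 array per lung, and each array also held a reference RNA in its second colour. All were female BALB/c mice, an inbred laboratory strain, 6 to 8 weeks old on arrival. The smoke group was exposed for 8 weeks, on 5 days of each week, with 2 exposures a day that lasted 50 minutes and used 12 cigarettes, and the room air group spent the same 8 weeks in room air. The labels name no virus, interferon or genetic change in either group.

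Every level below is the log2 ratio of lung (red) over reference (green) signal, on which a difference of 1 is a 2-fold change. The sample labels name a single dye, so the reading of red as lung rests on the signals themselves, and the groups are those of the scanner files. In the table of processed values that was also deposited the groups are exchanged, and read as labelled it gives a median difference of 0.17 for 34 of these genes and 0.09 for all probes, opposite in sign to the median of these genes below.

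Interferons are secreted proteins that warn neighbouring cells of viruses and other microbes. Type I and type III interferons act through the kinases Jak1 and Tyk2 on a complex with Stat2 and Irf9, which binds the interferon-stimulated response element, while type II interferon, made by T cells and natural killer cells, acts on the gamma-activated site. The induced proteins sense foreign nucleic acid, degrade RNA, block viral entry and budding, or attack the vacuoles of intracellular microbes, and in the lung they are part of the first defence against inhaled viruses.

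As a group, the genes were not higher in the smoke-exposed lungs. Smoke minus room air was negative for 30 of the 35 and positive for 5, with a median of -0.22 against -0.00 over all genes. By limma, with Benjamini-Hochberg adjustment over 41173 probes and a threshold of 0.05, 0 of the 35 rose, where 4.94% of all genes did, and 1 fell, where 3.27% of all genes did. The gene that fell was Irf1, and 10 of the 35 had an unadjusted p under 0.05, as had 5513 of 27669 genes. Of 16 genes with more than 1 probe, 11 had the same sign in all of them. Over the whole array 2906 probes passed in either direction (7.06%), and 61.7% of them were higher with smoke, against 73.3% with a background offset of 0 and 47.9% with median centring in place of loess. Among all probes 7479 had an unadjusted p under 0.05, and an exact Wilcoxon test with the same adjustment called 0. In whole-lung RNA, fewer cells of a type and less RNA per cell cannot be told apart.

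Much of the negative median went with 1 control lung. Room air replicate 1 had the highest level of the 5 room air lungs in 34 of the 35 genes and the highest of all 10 lungs in 30, while it was the highest of 10 in 15.2% of all genes. By Dixon's criterion it was an outlier on the high side of its group in 10 of the 35, against 2.35% of all genes. Its deviation from the mean of the other 4 room air lungs had a median of 0.79 over the 35 genes, from 0.11 to 2.22, and of -0.00 over all genes. The deviation lay in the lung channel. In red alone, scaled to the 75th percentile of the array, its median was 0.84, and in green alone 0.04, where the medians over all genes were -0.19 and -0.17. The smoke lung on the same slide did not share it, with a median deviation of 0.03 from the other smoke lungs.

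**Figure D1:**
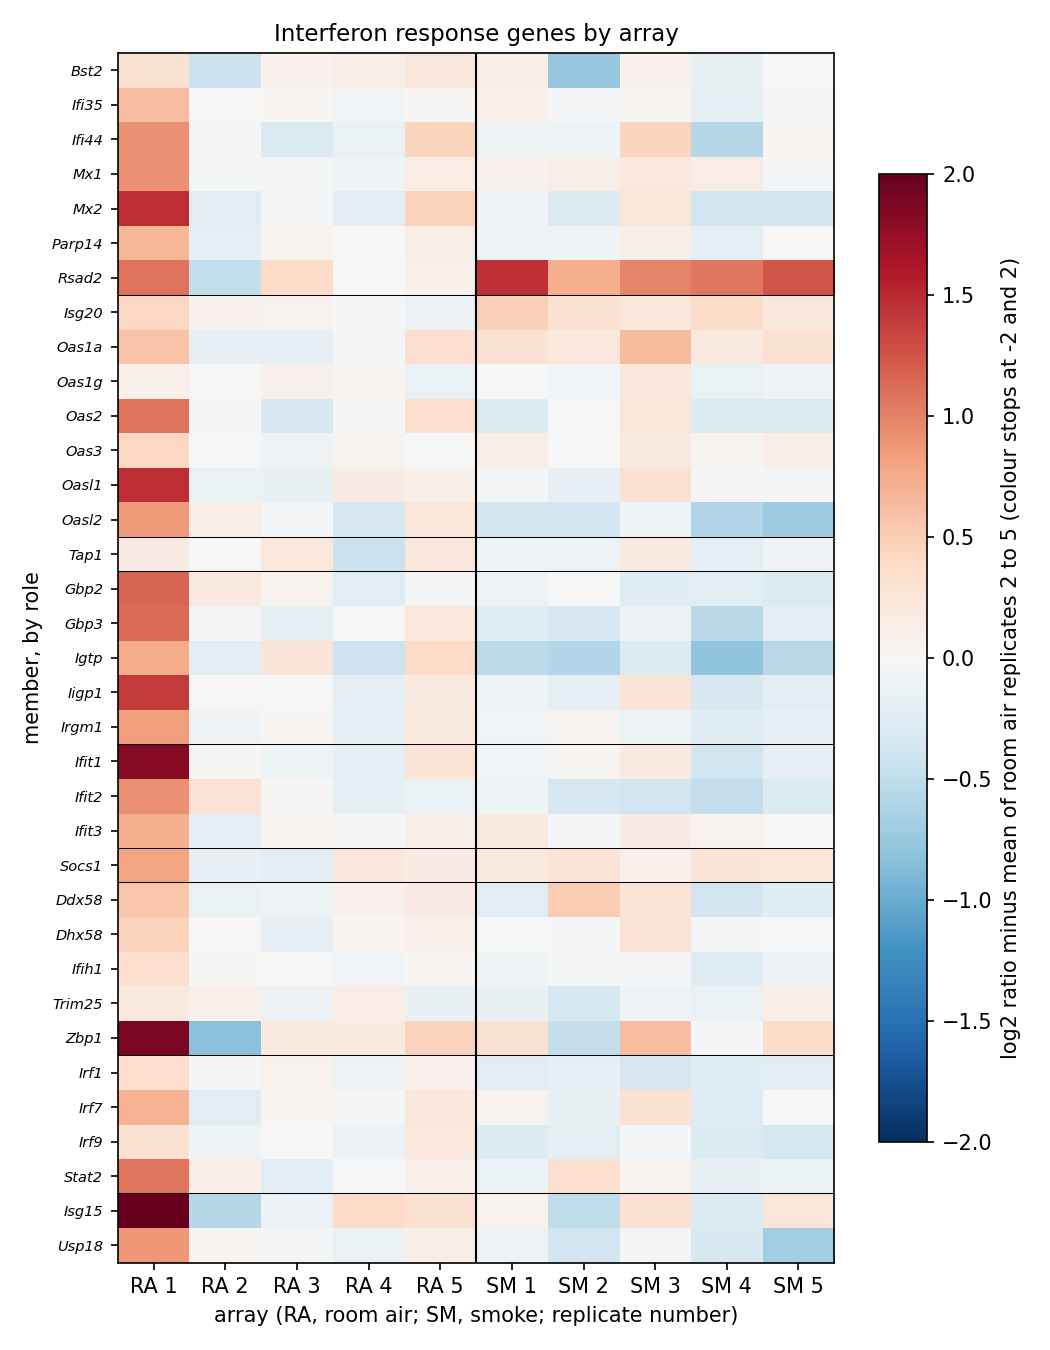
Log2 ratio of each of the 35 genes (rows, by role) on each of the 10 arrays (columns), minus the mean of room air replicates 2 to 5; red is higher and blue lower. Room air replicate 1 is the highest of 10 in 30 genes, and Rsad2 is also high in all 5 smoke lungs.

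Among the other 9 lungs the spread was smaller. The median level of the 35 genes was 1.11 in room air replicate 1 and 0.25, 0.20, 0.18 and 0.47 in room air replicates 2 to 5. In smoke replicates 1 to 5 it was 0.23, 0.30, 0.43, 0.03 and 0.12. Room air replicate 5 was the next highest and smoke replicate 4 the lowest, and the smoke lungs lay within the range of the room air lungs except for replicates 4 and 5. Smoke replicate 4 had the lowest level of the 10 lungs in 12 genes, and smoke replicates 1 and 3 each had the highest in 2.

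**Figure D2:**
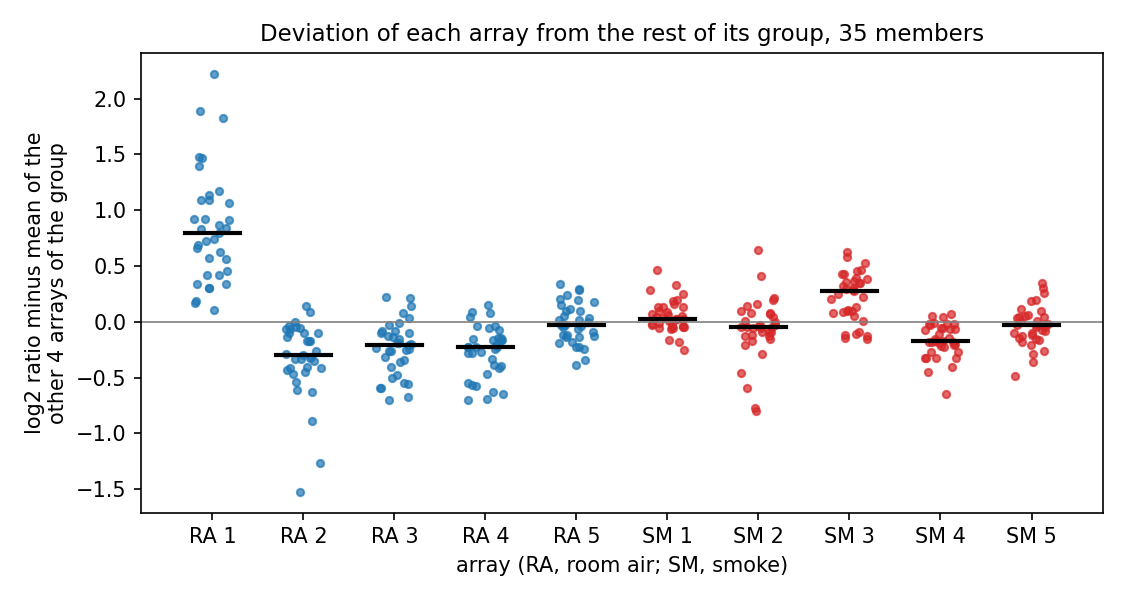
Deviation of each array from the mean of the other 4 arrays of its group, in log2 units, with a point for each of the 35 genes and a bar at their median. The median is 0.79 in room air replicate 1 and lies between -0.30 and 0.27 in the other 9 arrays.

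Leaving out room air replicate 1 moved the median difference of the 35 genes to -0.05, with 10 positive. Rsad2 and Isg20 then rose, 2 of 35 where 6.21% of all genes rose, and Irf1 alone fell, where 4.11% of all genes fell. That lung was the highest room air lung in 34 of the 35 genes, so leaving it out raises their differences whatever the smoke lungs read. Rises called only without it follow in part from that choice and are not a separate test. The same holds below for any other gene in which that lung stood above its group. Each slide holds a smoke array and a room air array of the same replicate number, so the slide was also fitted as a block. With the slide as a block and all 10 arrays, Rsad2 and Isg20 rose (7.48% of all genes) and Irf1, Igtp, Oasl2 and Ifit2 fell (6.3% of all genes). The paired fit without both arrays of replicate 1 made the same 6 calls, where 8.74% of all genes rose and 7.81% fell, with a median difference of -0.05. Within the slides of replicates 1 to 5 the median difference of the 35 genes was -0.78, -0.02, 0.16, -0.18 and -0.21, and 2, 16, 24, 7 and 6 genes were positive. The slides were scanned on 4 days. Slides 2 and 5 shared a day and together had a median of -0.09, and each of the other 3 days held a single slide. The first slide stood apart, the third was on the positive side, and the other 3 were between them.

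**Figure D3:**
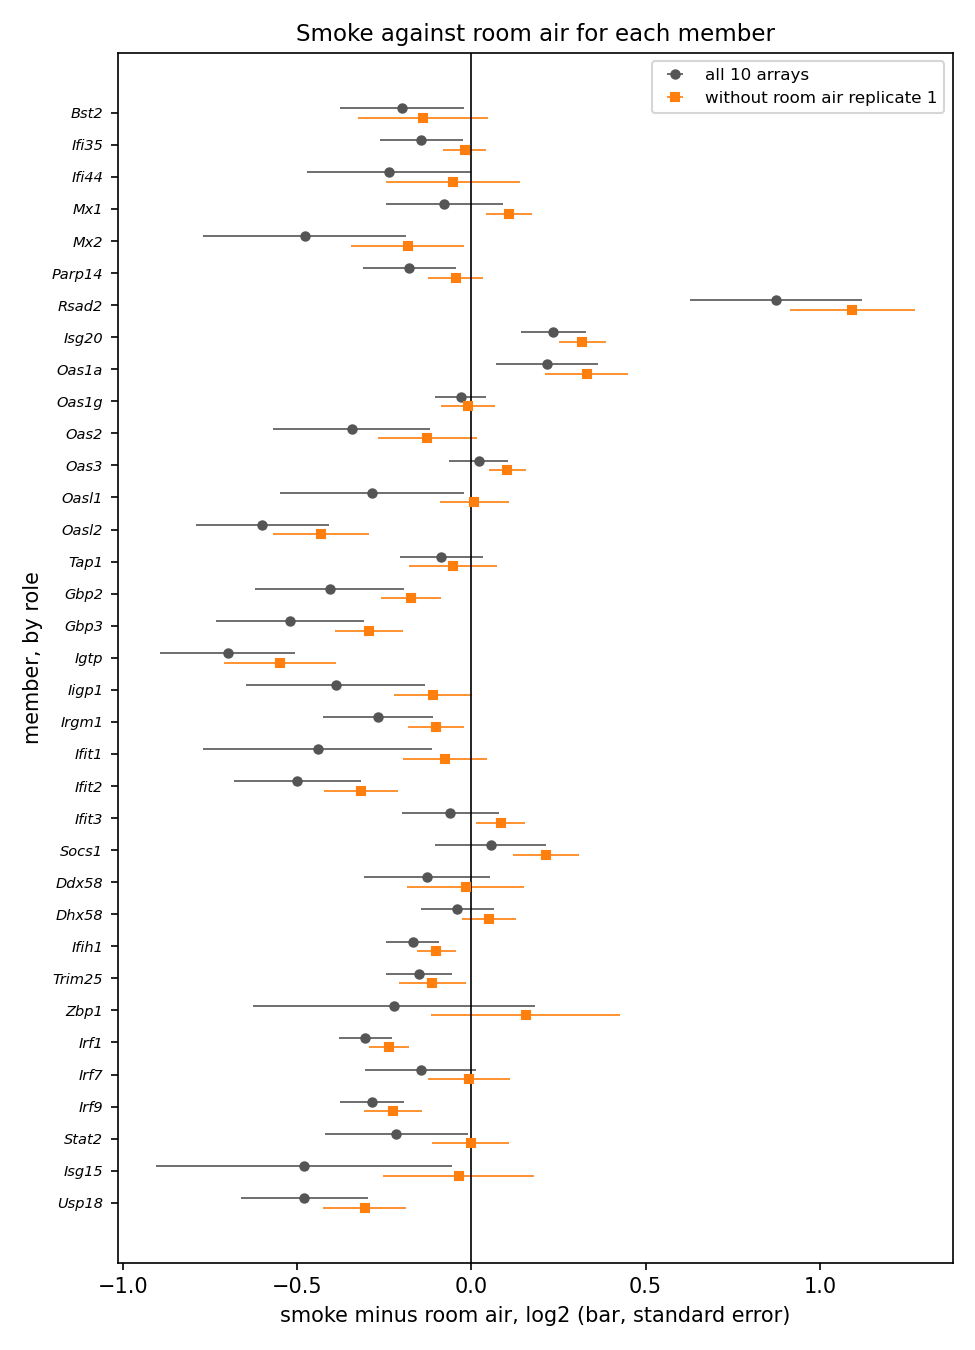
Smoke minus room air in log2 units for each of the 35 genes, with its standard error, over all 10 arrays (circles) and without room air replicate 1 (squares). Rsad2 is the highest in both, at 0.88 and 1.09, and Igtp the lowest in both, at -0.70 and -0.55.

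The promoters are shown because interferon signals reach these genes through 2 short motifs. RefSeq promoters of the mouse build GRCm38.p6, from 250 bases before to 50 after a transcription start, were available for 28 of the 36 genes, as 34 promoters. The interferon-stimulated response element was searched as GAAA, any 2 bases and GAAA, on both strands. It was found in 16 of the 34 promoters (47.1%), against 1131 of 32851 promoters of all genes (3.44%). The gamma-activated site, searched as TTC, any 3 bases and GAA, was found in 7 of the 34 (20.6%), against 2726 of all promoters (8.3%). Bst2, Igtp and Oas1a had both. Of the 26 matches to the response element, 24 lay before the start, and those of Bst2, Gbp3, Irgm1, Isg15, Oas1a, Oas1g and Socs1 overlapped one another, and in Bst2 the 2 motifs overlapped as well. A longer response element, ending in GAAACT, was found in 9 of the 34, against 0.271% of all promoters, and a shorter one, ending in GAA, in 18, against 8.56%. A match describes the letters only and is not a binding site shown in these lungs.

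The 250 bases before the start are given here for 7 genes named in the results, with matches in capitals. The response element is marked in Rsad2 (chr12:26456453-26456702, minus strand), Isg15 (chr4:156200819-156201068, minus strand), Ifit1 (chr19:34640639-34640888, plus strand) and Gbp2 (chr3:142620413-142620662, plus strand). Both motifs are marked in Igtp (chr11:58199306-58199555, plus strand), the gamma-activated site first. The gamma-activated site alone is marked in Irf1 (chr11:53769764-53770013, plus strand) and Isg20 (chr7:78913174-78913423, plus strand). Irf1 has 2 starts in the table and Isg20 has 3. The stretch shown is that of the start with a match, and the other promoters of these genes hold neither motif.
Rsad2: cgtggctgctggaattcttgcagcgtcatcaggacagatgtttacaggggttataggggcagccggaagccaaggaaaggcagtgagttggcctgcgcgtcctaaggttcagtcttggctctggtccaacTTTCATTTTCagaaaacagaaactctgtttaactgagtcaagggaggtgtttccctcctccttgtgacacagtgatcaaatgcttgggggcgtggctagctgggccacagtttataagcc
Isg15: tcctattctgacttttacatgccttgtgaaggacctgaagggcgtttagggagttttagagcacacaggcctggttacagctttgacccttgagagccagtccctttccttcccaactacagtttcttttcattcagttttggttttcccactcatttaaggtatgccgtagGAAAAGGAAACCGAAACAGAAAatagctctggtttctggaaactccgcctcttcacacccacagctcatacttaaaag
Ifit1: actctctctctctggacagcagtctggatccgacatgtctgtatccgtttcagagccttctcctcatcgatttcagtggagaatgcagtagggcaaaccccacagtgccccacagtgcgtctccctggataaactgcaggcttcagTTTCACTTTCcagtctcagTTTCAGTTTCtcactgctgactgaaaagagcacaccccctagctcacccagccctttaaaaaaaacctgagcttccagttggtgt
Gbp2: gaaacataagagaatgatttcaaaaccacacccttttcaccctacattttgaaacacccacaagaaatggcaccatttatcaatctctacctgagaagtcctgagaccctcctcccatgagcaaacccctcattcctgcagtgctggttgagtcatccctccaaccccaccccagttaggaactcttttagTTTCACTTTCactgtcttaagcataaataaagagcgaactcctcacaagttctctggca
Igtp: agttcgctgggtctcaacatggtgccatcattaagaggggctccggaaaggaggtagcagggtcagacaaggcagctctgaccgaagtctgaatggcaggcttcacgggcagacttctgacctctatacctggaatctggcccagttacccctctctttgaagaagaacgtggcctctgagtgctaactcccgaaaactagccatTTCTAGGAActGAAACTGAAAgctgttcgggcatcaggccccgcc
Irf1: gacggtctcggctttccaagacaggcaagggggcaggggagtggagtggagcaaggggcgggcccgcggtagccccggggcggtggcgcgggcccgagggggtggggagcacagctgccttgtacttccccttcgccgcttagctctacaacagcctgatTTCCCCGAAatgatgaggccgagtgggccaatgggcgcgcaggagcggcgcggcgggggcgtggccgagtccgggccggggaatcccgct
Isg20: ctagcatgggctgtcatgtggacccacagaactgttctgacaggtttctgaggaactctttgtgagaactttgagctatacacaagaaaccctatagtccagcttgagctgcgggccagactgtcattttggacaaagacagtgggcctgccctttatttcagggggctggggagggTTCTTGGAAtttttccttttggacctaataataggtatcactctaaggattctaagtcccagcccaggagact

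**Figure D4:**
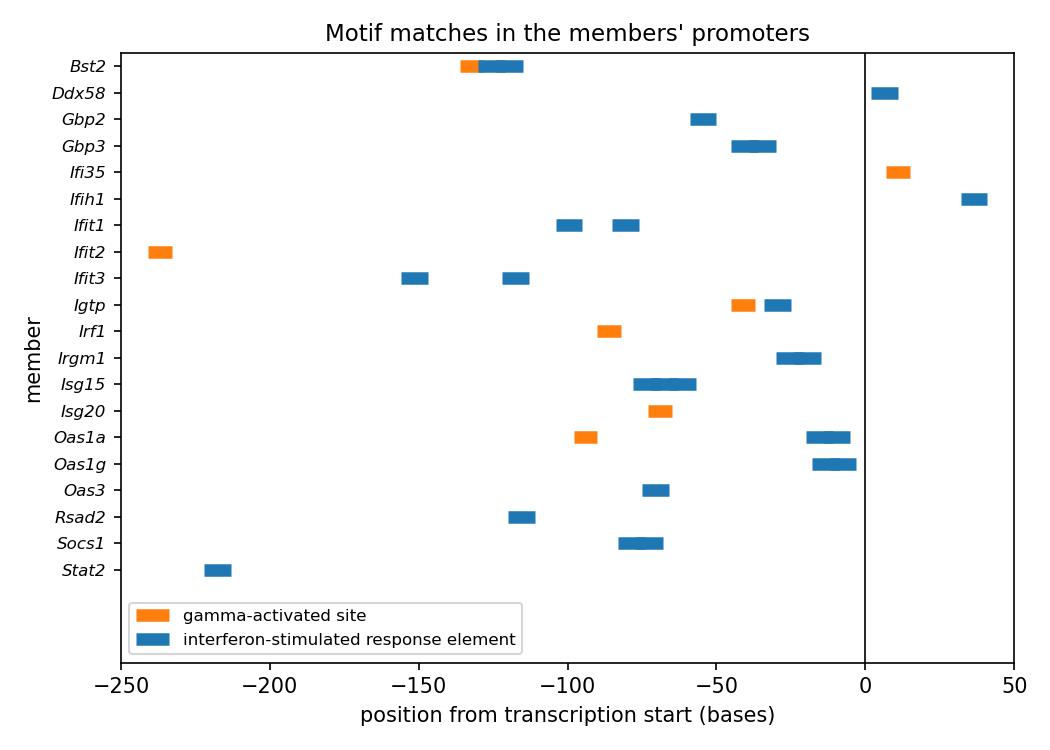
Positions of motif matches, in bases from the transcription start, in the promoters of the genes that hold one (rows). Matches to the response element (blue) lie mostly in the 130 bases before the start, and Ddx58 and Ifih1 have theirs after it.

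The genes are also placed together on chromosomes. The 36 genes lie on 15 chromosomes of the same build, with 7 on chromosome 11 and 6, all of the oligoadenylate synthetase family, on chromosome 5. For 13 genes the nearest other member is less than 100 kb away. These are Ifit1, Ifit2 and Ifit3, the 6 synthetase genes, Gbp2 with Gbp3, and Mx1 with Mx2.

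The nucleic acid sensors come first in the response. Ddx58, which encodes the RNA sensor RIG-I, had a difference of -0.13, Dhx58, a relative that tunes it, -0.04, and Trim25, a ubiquitin ligase that activates it, -0.15. Without room air replicate 1 these were -0.02, 0.05 and -0.11. Neither they nor Zbp1, which binds Z-form nucleic acid and can start cell death, nor Ifih1, a second sensor of long viral RNA, passed the test. Zbp1 varied most among these 5 genes. Its level was 1.63, -1.10, -0.07, -0.07 and 0.19 in room air replicates 1 to 5, and 0.04, -0.75, 0.35, -0.29 and 0.10 in smoke replicates 1 to 5. Room air replicate 1 was the highest and room air replicate 2 the lowest, and the groups overlapped. Smoke minus room air was -0.22 for Zbp1 (SE 0.40, adjusted p = 0.877, limma) and 0.16 without room air replicate 1. Ifih1 was lower in the smoke lung of all 5 slides, with -0.17 (SE 0.08, adjusted p = 0.275), and -0.10 without room air replicate 1, but its second probe had 0.00.

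The transcription factors that carry the signal were all on the lower side with smoke, with a median of -0.25, and -0.12 without room air replicate 1. Irf1, which is induced mainly by type II interferon and switches on antigen presentation and GTPase genes, was 2.02, 1.64, 1.75, 1.58 and 1.76 in room air replicates 1 to 5. In smoke replicates 1 to 5 it was 1.47, 1.51, 1.34, 1.44 and 1.47. Every smoke lung lay below every room air lung, and this was the only gene of the 35 whose groups did not overlap, where 3.25% of all genes had every smoke lung lower and 4.59% every smoke lung higher. Irf1 fell by 0.30 on the log2 scale (SE 0.08, adjusted p = 0.0351, limma), and fell by 0.24 without room air replicate 1 (adjusted p = 0.0234). Within the slides the difference was -0.55, -0.13, -0.40, -0.15 and -0.29, so all 5 pairs had the same direction. The call was close to the threshold. It was lost on leaving out room air replicate 3 (adjusted p = 0.0724) or 5 (0.0703), or smoke replicate 1 (0.0711), 2 (0.0548), 3 (0.086), 4 (0.0718) or 5 (0.0725), with differences from -0.32 to -0.28. It was also lost with an offset of 0 (0.173), median centring (0.161), ratios scaled between arrays (0.255), the scanner software's ratio (0.0752), the red channel alone (0.36 and 0.0957) and the mean of its probes (0.0561). A second, dimmer Irf1 probe had a difference of -0.14 (adjusted p = 0.359).

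Irf9, the DNA-binding partner of Stat2, was lower in the smoke lung of all 5 slides, with a difference of -0.29 (SE 0.09, adjusted p = 0.0961). It passed only with quantile normalization of the red channel alone (adjusted p = 0.0488), and its second probe had -0.03 (adjusted p = 0.893). Stat2, the signal transducer of type I and type III interferons, had -0.22 and Irf7, which amplifies type I interferon production, -0.15. Both were at -0.00 or -0.01 without room air replicate 1. For Stat2 that lung read 1.49, where the other 9 lungs read 0.19 to 0.75.

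The Ifit proteins bind foreign RNA and block its translation. Ifit1 was 2.07 in room air replicate 1 and 0.27, 0.14, 0.06 and 0.52 in room air replicates 2 to 5, and 0.19, 0.30, 0.43, -0.15 and 0.09 in smoke replicates 1 to 5. Apart from the first room air lung the groups overlapped, with smoke replicate 4 the lowest of all. Its difference was -0.44 (SE 0.33, adjusted p = 0.588), and -0.08 without that lung. Ifit2 was 0.77, 0.15, -0.12, -0.33 and -0.27 in room air replicates 1 to 5, and -0.23, -0.48, -0.54, -0.62 and -0.41 in smoke replicates 1 to 5. The groups overlapped only slightly, and the smoke lung was the lower one on all 5 slides, by -1.01, -0.63, -0.43, -0.29 and -0.15. Ifit2 had a difference of -0.50 (SE 0.18, adjusted p = 0.154) and passed once the slide was fitted as a block (adjusted p = 0.0258). Without room air replicate 1 it was -0.32, and its second probe had -0.23 and did not pass with the block (adjusted p = 0.322). The brighter Ifit3 probe had -0.06, and 0.08 without room air replicate 1. The other had -0.40 and -0.26, and passed with the block (adjusted p = 0.0238), so the 2 probes of Ifit3 gave different results.

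Isg15, a ubiquitin-like protein that is attached to other proteins after infection, had the largest deviation of room air replicate 1 among the 35 genes, 2.22. Its levels were 1.60, -1.19, -0.73, -0.23 and -0.32 in room air replicates 1 to 5, and -0.55, -1.13, -0.31, -0.91 and -0.37 in smoke replicates 1 to 5. With the first lung set aside the groups covered the same range. The difference was -0.48 (SE 0.42, adjusted p = 0.675), and -0.04 without that lung. Usp18, which removes Isg15 from proteins and dampens the type I receptor, was lower in the smoke lung of all 5 slides, with -0.48 (SE 0.18, adjusted p = 0.175), and -0.31 without room air replicate 1.

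**Figure D5:**
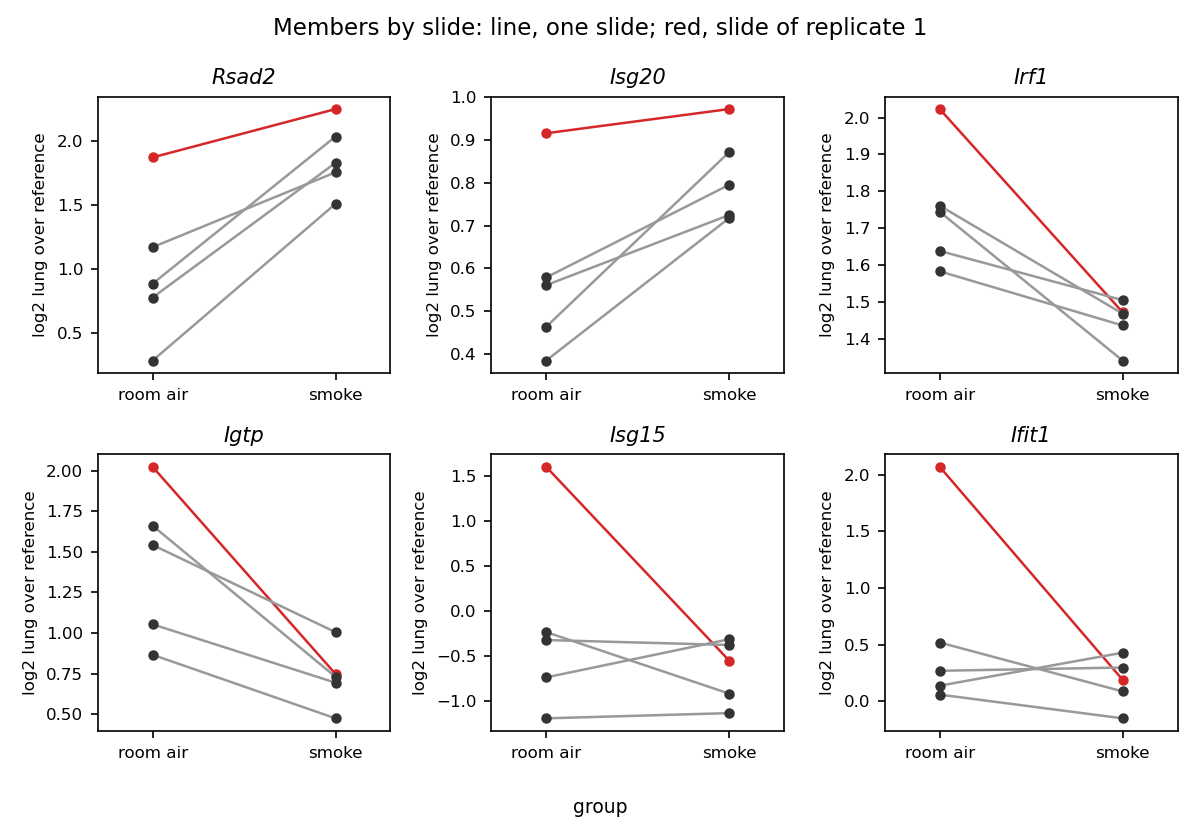
Log2 ratio of lung over reference for 6 genes, with a line for each slide from its room air array to its smoke array; the slide of replicate 1 is in red and each panel has its own vertical scale. Rsad2 and Isg20 are higher, and Irf1 and Igtp lower, in the smoke lung on all 5 slides.

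Rsad2, also called viperin, makes a modified nucleotide that stops viral polymerases, and it was the gene with the highest difference of the 35. Its level was 1.87, 0.29, 1.17, 0.78 and 0.89 in room air replicates 1 to 5, and 2.25, 1.51, 1.75, 1.83 and 2.03 in smoke replicates 1 to 5. Room air replicate 1 alone reached into the range of the smoke lungs, and the other 4 room air lungs lay below all 5. The difference of 0.88 (SE 0.25) missed the threshold with all arrays (adjusted p = 0.0589) and was 1.09 (SE 0.18, adjusted p = 0.00272) without room air replicate 1. With the slide as a block Rsad2 rose (adjusted p = 0.00355), and the smoke lung was higher on each slide, by 0.38, 1.22, 0.58, 1.05 and 1.15. Its other 2 probes were also positive, at 0.47 and 0.38, and passed with the block (adjusted p = 0.024 and 0.0265), but not without room air replicate 1 (0.0718 and 0.0913). The brightest probe also passed with only probes well above background (0.0401), scaled ratios (0.0392) and red quantile normalization (adjusted p = 0.0498).

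Isg20, an exonuclease that degrades viral RNA, followed the same pattern at a smaller size. It was 0.92, 0.58, 0.56, 0.46 and 0.39 in room air replicates 1 to 5, and 0.97, 0.79, 0.72, 0.87 and 0.72 in smoke replicates 1 to 5. Again only the first room air lung lay among the smoke lungs. The difference was 0.23 (SE 0.09, adjusted p = 0.197), and 0.32 without that lung (adjusted p = 0.0126). With the slide as a block it passed (adjusted p = 0.0377), with 0.06, 0.22, 0.16, 0.41 and 0.33 on the slides.

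The oligoadenylate synthetases make the messenger that activates RNase L, and the list also holds their relatives Oasl1 and Oasl2. Oas1a had 0.22, Oas3 0.02, Oas2 -0.34 and Oasl1 -0.29, and none passed. Without room air replicate 1 they had 0.33, 0.10, -0.13 and 0.01, so the lower values of Oas2 and Oasl1 went largely with that lung. Oas1g was not well above background on any of the 10 arrays, so its probe gives only a bound. Oasl2, which has a ubiquitin-like tail, was 0.96, 0.25, 0.08, -0.22 and 0.36 in room air replicates 1 to 5, and -0.27, -0.26, 0.02, -0.46 and -0.61 in smoke replicates 1 to 5. Only smoke replicate 3 lay within the room air range, and on all 5 slides the smoke lung was the lower one. Its difference was -0.60 (SE 0.19, adjusted p = 0.0951). Oasl2 passed in the paired fit, with a slide block (adjusted p = 0.0484) and on leaving out room air replicate 4 (-0.73, adjusted p = 0.036). These genes and Isg20 lay on both sides. Their joint median of -0.03 is the value of Oas1g, and it was 0.01 without room air replicate 1, 0.00 with no background correction, -0.13 with only probes well above background and -0.21 with the scanner software's ratio.

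Of the remaining antiviral effectors, Mx1 and Mx2 are dynamin-like GTPases that trap viral particles, and the Mx1 allele of BALB/c mice is known to be defective. Mx1 had -0.08 and Mx2 -0.48, with room air replicate 1 at 0.80 and 1.88 and the other 9 lungs at or below 0.10 and 0.86. Ifi44, a cytoplasmic protein of little-known function, had -0.24, Ifi35, which modulates sensor signalling, -0.14, Parp14, an ADP-ribosyltransferase, -0.18, and Bst2, or tetherin, which holds budding virus at the cell surface, -0.20. None of these 6 genes passed. Leaving out room air replicate 1 brought Mx1 to 0.11 and the other 5 to between -0.18 and -0.02.

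The guanylate-binding proteins and immunity-related GTPases attack the vacuoles of intracellular bacteria and parasites and are induced above all by type II interferon. All 5 on the list were on the lower side, with a median of -0.41, and of -0.17 without room air replicate 1. Igtp, also known as Irgm3, was 2.02, 1.05, 1.54, 0.87 and 1.66 in room air replicates 1 to 5, and 0.75, 0.69, 1.00, 0.47 and 0.73 in smoke replicates 1 to 5. Smoke replicate 3 lay above room air replicate 4, and the smoke lung was the lower one on every slide, by -1.28, -0.36, -0.54, -0.39 and -0.93. The difference of -0.70 (SE 0.19) missed the threshold (adjusted p = 0.0551), and fell short without room air replicate 1 as well (-0.55, adjusted p = 0.0614). Igtp passed in the paired fit, with a slide block (adjusted p = 0.012) and on leaving out room air replicate 2 (-0.79, adjusted p = 0.0444) or 4 (-0.84, adjusted p = 0.0156). It passed too with only probes well above background (adjusted p = 0.0383).

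Gbp2 had -0.41, Gbp3 -0.52, Iigp1 -0.39 and Irgm1 -0.27, and none passed. In Gbp2 and Iigp1 room air replicate 1 was at 2.85 and 4.18, and the rest of its group at 1.48 to 1.87 and 2.61 to 2.96. Without it the 4 genes had -0.29 to -0.10. Tap1, which carries peptides to class I molecules, had -0.09, and -0.05 without that lung. Socs1, an inhibitor of the Jak kinases, had 0.06, and 0.21 without room air replicate 1. It was negative with median centring in place of loess (-0.06) and without room air replicate 2 or 3 (-0.03 and -0.04). Socs1 was higher in the smoke lung on 4 of 5 slides.

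Other genes of the same pathway were taken from lists. Of 9 measured interferon genes none passed in either direction, by limma, where 4.94% of all genes rose and 3.27% fell. An unadjusted p under 0.05 was found for 0 of the 9, and for 5513 of 27669 genes. The Wilcoxon test also gave 0, as it did for every probe of the array, so its 0 carries no information on this list. Their signals were weak. Ifng, the type II interferon, and Ifnz were well above background on all 10 arrays. Ifnk and Ifne were not on any, and Ifnb1, Ifna1, Ifna2, Ifna4 and Ifnl3 were on between 1 and 4. Ifng had a difference of -0.20 (SE 0.11, adjusted p = 0.387) and was lower in the smoke lung on all 5 slides, with an adjusted p of 0.0498 with the slide as a block and 0.0882 in the paired fit without replicate 1.

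Among the receptor and kinase genes Ifnar2 and Il10rb rose. Ifnar2, a chain of the type I receptor, was 0.51, 0.24, -0.09, 0.15 and 0.09 in room air replicates 1 to 5, and 0.58, 0.72, 0.53, 0.60 and 0.60 in smoke replicates 1 to 5. Every smoke lung was above every room air lung, and the difference was 0.43 (SE 0.09, adjusted p = 0.0181). The call was lost with an offset of 0 (adjusted p = 0.0578), median centring (0.104), the red channel alone (0.177 and 0.0551) and the mean of its probes (0.0819). Il10rb, a chain shared by the type III and interleukin-10 receptors, rose by 0.38 (SE 0.09, adjusted p = 0.027). It lost that call on leaving out room air replicate 2 or 3 (adjusted p = 0.0652 and 0.0683) or smoke replicate 1, 3, 4 or 5 (0.0705, 0.0618, 0.0546 and 0.064). It lost it as well with an offset of 0 (0.0811), median centring (0.512), scaled ratios (0.0588), the scanner software's ratio (0.0744), the red channel alone (0.263 and 0.233) and the mean of its probes (0.19, adjusted p = 0.104). Ifngr2, a chain of the type II receptor, had 0.50 (adjusted p = 0.0825), and 0.65 (adjusted p = 0.000797) without room air replicate 1. It passed as well with red quantile normalization (0.0324) and the mean of its probes (adjusted p = 0.007). Jak2 had 0.14, and 0.26 (adjusted p = 0.0277) without that lung. Ifnar1, Ifngr1, Ifnlr1, Jak1 and Tyk2 had between -0.10 and 0.18, and did not pass.

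Among 15 other sensors, adaptors and Irf genes, 4 rose and 0 fell, where 4.94% and 3.27% of all genes did, with a median of 0.10 that was -0.01 with median centring in place of loess. Tlr7, the endosomal receptor for single-stranded RNA, was 1.22, 0.87, 0.74, 0.78 and 0.96 in room air replicates 1 to 5, and 2.12, 2.07, 2.26, 2.10 and 1.96 in smoke replicates 1 to 5. The groups were far apart, with a difference of 1.18 (SE 0.09, adjusted p = 2.14e-05). Irf5, which acts below Tlr7, rose by 0.63 (SE 0.10, adjusted p = 0.00277), and Irf8, a factor of macrophages and dendritic cells, by 0.34 (SE 0.06, adjusted p = 0.00579). Each was higher in all 5 smoke lungs than in any room air lung. Both lost their calls with median centring (adjusted p = 0.0739 for Irf5 and 0.436 for Irf8) and with the red channel alone at the 75th percentile (0.0747 and 0.065), which Tlr7 did not. Ikbke, a kinase that activates Irf proteins, rose by 0.30 (SE 0.08, adjusted p = 0.0497). That call was lost on leaving out any 1 array other than room air replicate 1, with adjusted p from 0.068 to 0.121. It was also lost with every other correction or scaling tried (adjusted p from 0.0556 to 0.432). Without room air replicate 1 the list had 5 genes that rose, and 6 in the paired fit without replicate 1 (6.21% and 8.74% of all genes).

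Of 46 other antiviral interferon-induced genes 1 rose and 2 fell, where 4.94% and 3.27% of all genes did, with a median of -0.14 and -0.02 without room air replicate 1. In 32 of the 46 that lung was the highest of 10. Lgals3bp, a secreted glycoprotein, rose by 0.60 (SE 0.10, adjusted p = 0.00316). Ifitm3, which blocks viral entry, fell by 0.47 (SE 0.13, adjusted p = 0.0468), and Cmpk2, a mitochondrial nucleotide kinase encoded beside Rsad2, fell by 0.42 (SE 0.11, adjusted p = 0.0408). In both genes that fell every smoke lung lay below every room air lung. With room air replicate 1 left out the differences were -0.34 and -0.33 (adjusted p = 0.00573 and 0.0338). The call of Ifitm3 was lost on leaving out any 1 array other than room air replicates 1 and 4 (adjusted p from 0.0512 to 0.119). That of Cmpk2 was lost without room air replicate 2, 3 or 5 or smoke replicate 1, 2, 4 or 5 (adjusted p from 0.0526 to 0.0982). Ifitm3 also lost it with no background correction, an offset of 0, median centring, the scanner software's ratio and the red channel alone (adjusted p from 0.0613 to 0.342), and Cmpk2 with no background correction, an offset of 0 and red quantile normalization (0.0505 to 0.055). In the paired fit 2 genes of the list rose and 3 fell (7.48% and 6.3% of all genes). Without room air replicate 1, 3 rose and 2 fell (6.21% and 4.11% of all genes). In the paired fit without replicate 1, 4 rose and 5 fell (8.74% and 7.81% of all genes).

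Among the lists outside the interferon response genes, the other interferon-inducible GTPases had the lowest median, -0.45, and -0.28 without room air replicate 1. All 11 measured were negative with and without that lung, and 3 fell, where 3.27% of all genes did. Gbp9 was 1.52, 0.91, 0.98, 0.59 and 0.97 in room air replicates 1 to 5, and 0.14, 0.09, -0.01, 0.25 and 0.11 in smoke replicates 1 to 5. No smoke lung came near a room air lung, and Gbp9 fell by 0.88 (SE 0.14, adjusted p = 0.00228). Gbp4 fell by 0.67 (SE 0.11, adjusted p = 0.00354) and Irgm2 by 0.63 (-0.63, SE 0.14, adjusted p = 0.0164), again with no overlap between the groups. The call of Irgm2 was lost with ratios scaled between arrays (adjusted p = 0.0601). In the paired fit 4 of the 11 fell (6.3% of all genes). In the paired fit without replicate 1, 5 fell (7.81%) and 1 of the 11 was positive.

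Of 12 class I antigen presentation genes 1 fell (3.27% of all genes) and 0 rose (4.94%), and 2 fell in the paired fit (6.3%). Their median was -0.14, -0.09 without room air replicate 1 and -0.03 with ratios scaled between arrays. The gene that fell was Psmb9, an immunoproteasome subunit, which fell by 0.37 (SE 0.07, adjusted p = 0.00796) and was lower in every smoke lung than in any room air lung. Psmb9 lost the call with an offset of 0 (0.0662), median centring (0.117), scaled ratios (0.228) and the red channel alone at the 75th percentile (adjusted p = 0.361). Among 7 brakes on the signal, Ptpn6, a phosphatase of blood cells also called SHP-1, rose by 0.81 (SE 0.09, adjusted p = 0.000221), and Rnf125, a ubiquitin ligase that removes RIG-I, fell by 0.37 (SE 0.06, adjusted p = 0.00511). Rnf125 lost the call with median centring (0.0884) and the red channel alone (0.144 and 0.0559). The median of the 7 was 0.08, -0.03 with median centring in place of loess and 0.27 without room air replicate 1. Of the 7, 1 rose and 1 fell with all arrays (4.94% and 3.27% of all genes). Without room air replicate 1, 3 rose and 1 fell (6.21% and 4.11%). In the paired fit 2 rose and 1 fell (7.48% and 6.3%), and 5 rose and 2 fell without replicate 1 (8.74% and 7.81%).

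Among the chemokines that interferons induce to attract T cells, Cxcl10 showed the first room air lung most plainly. Cxcl10 was 3.32 in room air replicate 1 and -1.51, -2.03, -1.79 and -1.01 in room air replicates 2 to 5, and -0.87, -0.78, -0.83, -1.42 and -0.66 in smoke replicates 1 to 5. That lung stood 4.91 above the mean of the other 4, and 4 of the 5 smoke lungs were above those 4. Smoke minus room air was -0.31 with all arrays (adjusted p = 0.925) and 0.67 without that lung (adjusted p = 0.0678), and it rose by 0.66 in the paired fit without both arrays of replicate 1 (adjusted p = 0.00762). Cxcl9 had 0.08, and 0.38 (adjusted p = 0.0332) without room air replicate 1. That lung read 1.63, where the other 4 room air lungs read up to 0.30. Cxcl9 was well above background on 9 arrays, and rose by 0.32 in the paired fit without replicate 1 (adjusted p = 0.00275). With Cxcl10, 2 of the 4 chemokine genes rose in that fit, where 8.74% of all genes did. Cxcl11 was well above background on 1 array only, room air replicate 1. Ccl5, a product of T cells and other leukocytes, had -0.34 (adjusted p = 0.128), and passed on leaving out room air replicate 3 (-0.42, adjusted p = 0.0429). In Ccl5 room air replicate 1 stood only 0.03 above the mean of the other 4, and room air replicate 5 was the highest.

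Markers of cell types were read in the same arrays. Of 9 neutrophil markers, 8 were highest among the room air lungs in replicate 1, with deviations from 0.03 to 2.54 over the 9. Their summed red signal, on a log2 scale relative to the 75th percentile of the array, was 7.72, 5.42, 5.04, 5.21 and 5.69 in room air replicates 1 to 5, and 6.68, 6.31, 5.89, 6.04 and 6.24 in smoke replicates 1 to 5. The first room air lung exceeded all others, and every smoke lung exceeded room air replicates 2 to 5. S100a9, the brightest of the 9, had a difference of 0.16 (adjusted p = 0.852), and passed only in the paired fit without replicate 1 (0.28, adjusted p = 0.0473). Camp and Mmp8 rose, by 0.60 (adjusted p = 0.00881) and 1.16 (adjusted p = 0.021). The call of Mmp8 was lost without room air replicate 2, 3 or 5 or smoke replicate 1 (adjusted p = 0.0547, 0.055, 0.0523 and 0.0562), and with the scanner software's ratio (0.0788). That of Camp was lost with the red channel alone at the 75th percentile (0.0756). Of the 9, 2 were negative, down to -0.43. The median difference of the 9 was 0.22, and 0.52 without room air replicate 1. With all arrays 2 of the 9 rose (4.94% of all genes), and 4 without that lung (6.21%). In the paired fit 3 rose (7.48% of all genes), and 7 without replicate 1 (8.74%). Ngp was well above background on 1 array only, and the other 8 on at least 9.

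Of 5 monocyte markers, 4 were highest among the room air lungs in replicate 1, with a median deviation of 0.96. Their summed red signal was 4.04, 3.35, 3.25, 3.12 and 3.57 in room air replicates 1 to 5, and 3.81, 3.77, 3.71, 3.51 and 3.83 in smoke replicates 1 to 5. Plac8 was the brightest, with a difference of -0.21, and Csf1r, the receptor of macrophage growth factors, rose by 0.58 (adjusted p = 0.00128), a call lost with median centring (0.0591) and the red channel alone (0.127 and 0.06). Of the 5, 1 rose with all arrays (4.94% of all genes), 2 without room air replicate 1 (6.21%) and 4 in the paired fit without replicate 1 (8.74%). All 5 were well above background on all 10 arrays, and smoke replicate 4 lay below room air replicate 5. The part of neutrophils and monocytes in the high levels of room air replicate 1 was not tested.

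By their medians, the other marker lists did not move with that lung in this way. Its median deviation was -0.32 for alveolar macrophage markers, -0.03 for T and natural killer cells, 0.12 for B cells, 0.12 for plasmacytoid dendritic cells, the main makers of type I interferon, and -0.05 for endothelium. It was 0.09 for alveolar type 2 cells, 0.14 for alveolar type 1 cells, -0.03 for club cells and 0.27 for ciliated cells. Among the alveolar macrophage markers the deviations ran from -0.45 to 2.02, and that lung was the highest with room air in 2 of the 7. Between the groups, 3 of 7 alveolar macrophage markers rose (4.94% of all genes), and their summed red signal was 5.61 to 5.79 with room air and 7.37 to 7.71 with smoke, with Chil3 the brightest. Of the 7, 2 were negative, down to -0.66, and 1 fell in the paired fit and without room air replicate 1 (6.3% and 4.11% of all genes). Mrc1, 1 of the 3 that rose, lost the call with the scanner software's ratio (0.91, adjusted p = 0.121).

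Endothelial markers summed to 7.90 to 8.32 with room air and 7.37 to 7.61 with smoke. All 6 had negative differences, though 4 of the 6 were positive with ratios scaled between arrays, and Cldn5 was the brightest. Cldn5 fell with the red channel alone (-0.75 and -0.82, adjusted p = 0.011 and 0.00101). Pecam1 fell by 0.41 (adjusted p = 0.0488), a call lost without room air replicate 2, 3 or 5 or smoke replicate 1, 2, 4 or 5 (adjusted p from 0.0761 to 0.119). It was also lost with no background correction, an offset of 0, median centring, scaled ratios, the scanner software's ratio and the mean of its probes (adjusted p from 0.0527 to 0.313). In the paired fit 2 of the 6 fell (6.3% of all genes). Prf1, the perforin of cytotoxic cells, fell by 0.64 (adjusted p = 0.0128), 1 of 12 T and natural killer cell markers, whose brightest was Lck. With all arrays 4.94% of all genes rose and 3.27% fell. Of the 12, 5 were positive, and in the paired fit 2 rose and 2 fell (7.48% and 6.3% of all genes). Prf1 lost the call with an offset of 0 (0.314), scaled ratios (0.07) and the scanner software's ratio (-0.40, adjusted p = 0.783). Tcf4 fell by 0.29 (adjusted p = 0.0179), 1 of 7 plasmacytoid dendritic cell markers and the brightest of them, with 2 of 7 in the paired fit (6.3% of all genes). Tcf4 lost the call with an offset of 0 (0.104), median centring (0.0801) and the red channel alone at the 75th percentile (adjusted p = 0.152). Cd22 rose by 0.85 (adjusted p = 0.0136), 1 of 6 B cell markers, whose brightest was Cd79b. That call was lost with an offset of 0 (adjusted p = 0.492) and with the scanner software's ratio (0.34, adjusted p = 0.812). None of the alveolar type 2, alveolar type 1, club or ciliated cell markers passed, 0 of 21 in all, where 4.94% of all genes rose and 3.27% fell. Of the 21, 2 had an unadjusted p under 0.05, as had 5513 of 27669 genes. The Wilcoxon test called 0 on the whole array, so its 0 for these markers carries no information. In the paired fit 2 of 6 alveolar type 1 markers fell (6.3% of all genes), and Hopx fell with red quantile normalization (adjusted p = 0.0029). The brightest of these lists were Sftpc, Hopx, Cbr2 and Dynlrb2. All 3 genes read as marks of smoke exposure rose (4.94% of all genes). The part of these shifts between the groups in the differences of the interferon response genes was not tested.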

How the data were processed

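Per the file headers, the scanner files hold the intensity of each spot in 2 colours, read with Feature Extraction 9.5.3.1 (the labels state 9.1 and 1 dye), and a log10 ratio computed by that software. The deposited value table holds log2 values that equal the mean of both colours in the scanner files, with the groups exchanged (286449 of 286449 values, within 1e-04). Red was taken as lung and green as reference.

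Background was corrected by normexp with an offset of 50, the ratios of each array were normalized by loess, spots the scanner software marked as outliers were left out, and probes were averaged. Differences were tested by limma 3.58.1 in R 4.3.3, with Benjamini-Hochberg adjustment over all probes. A gene is represented by its brightest red probe. Probes were named by accession (22951), symbol (6659), synonym (3109) or the file's own name (8455), and 4 of the 36 genes have a newer name than in the files. The only Gbp3 probe carries the label Gbp4 there and was taken as Gbp3 by its current symbol. The Gbp4 values come from a different probe. One pathway gene is not reported here. The genes and lists were chosen with earlier results of these data known. Interferon, receptor, kinase and chemokine genes are named as members of their lists. Other genes are mostly named because they passed the test, changed with a setting or are the brightest of a list.

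Each slide held smoke at place 1 and room air at place 2, so place and group cannot be told apart. Over 41133 probes, the deviations of arrays with the same replicate number correlated at 0.157 to 0.55, and those of arrays with different numbers had a median correlation of -0.124 and a highest of 0.205, above the 0.157 of replicate 1.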

Additional observations from a re-analysis of the deposited data

Results flagged for a closer look

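Of 188 groups of 5 arrays examined for named genes, 29 had 1 array far from the other 4 by Dixon's criterion, where chance gives about 1 in 20 groups. Some of these genes were named because their calls changed without room air replicate 1, so the 29 are not a count over genes chosen apart from that lung. Over all genes it was the high array by this criterion in 2.35%. The values are the log2 gap to the nearest other array of the group. Room air replicate 1 was the high array in 17 of the 29. Among the interferon response genes these were Ifit1 (1.55), Oasl1 (1.303), Iigp1 (1.22), Gbp2 (0.99), Stat2 (0.93), Mx1 (0.77), Usp18 (0.75), Ifi35 (0.58), Oas3 (0.36) and Ifih1 (0.29). Among other pathway genes and markers they were Cxcl10 (4.33), Cxcl9 (1.33), Cxcl11 (1.31, a lower bound, since no other array was well above background), Ifitm3 (0.58), Jak2 (0.54), Cmpk2 (0.395) and Mmp8 (1.17). Cxcl10 had by far the widest gap.

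Smoke replicate 3 was high in Mrc1 (0.73), Oas1a (0.33), Dhx58 (0.27) and Tap1 (0.25). Smoke replicate 4 was low in Marco (0.96), Cxcl10 (0.555), Plac8 (0.39) and Irgm2 (0.28), and smoke replicate 5 in Lgals3bp (0.33) and Cxcl11 (0.0491). Room air replicate 4 was low in Cd22 (0.62) and Ifngr1 (0.34). The smoke arrays were not well above background in Cxcl11, so its smoke gap has no meaning as a level.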

How the results depend on the processing

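With 23 alternatives, 10 of which leave out 1 array, 1890 of 2140 values of the 94 named genes were counted as unchanged. These kept their side of the threshold, but not always their sign. Without room air replicate 1, 33 of the 35 interferon response genes were counted as unchanged. The number of these 35 genes with a positive difference went from 5 to 10 in that setting. The 2906 called probes became 0 with the Wilcoxon test, 5019 with the slide as a block, 6088 with the block and without replicate 1, 1660 with an offset of 0, 1434 with median centring, 1759 with red alone scaled to the 75th percentile, 13 with the deposited table as labelled, and 2102 to 3660 on leaving out 1 array. Averaging a gene's probes gives no count of probes.

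Of the interferon response genes, 0 rose in the limma fit of all arrays. The number was 2 with the block, 2 with the block without replicate 1, and 1 each with only probes well above background on 5 arrays, with ratios scaled between arrays and with red alone quantile normalized (Rsad2 in all 3), and 0 to 2 on leaving out 1 array. The 1 that fell became 4 with the block, 4 with the block without replicate 1, 2 with probes well above background, and 0 to 3 on leaving out 1 array. It became 0 with the Wilcoxon test, an offset of 0, median centring, scaled ratios, the scanner software's ratio, red alone at the 75th percentile, the deposited table and the mean of all probes. With red quantile normalized the gene that fell was Irf9 and no longer Irf1. The median of -0.22 was -0.29 to -0.05 on leaving out 1 array, -0.33 with median centring and 0.17 with the deposited table. The 16 promoters with a response element became 9 with the longer motif. The causes of these changes were not tested.

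A difference reversed with a call on either side in Cxcl10, at 0.66 with the block and without replicate 1. With the deposited table as labelled, which exchanges the groups, the reversed genes were Irf1 (0.27), Gbp4 (1.07), Gbp9 (0.60), Irgm2 (0.42), Cmpk2 (0.42), Ifitm3 (0.18), Psmb9 (0.21), Rnf125 (0.27), Tcf4 (0.23), Pecam1 (0.705), Ifnar2 (-0.0501), Il10rb (-0.11), Tlr7 (-0.70), Irf5 (-0.24), Irf8 (-0.25), Ikbke (-0.14), Lgals3bp (-0.26), Ptpn6 (-0.34), Csf1r (-0.30), Cd22 (-0.31), Chil3 (-0.93), Marco (-2.58), Mrc1 (-1.29), Ahrr (-1.56), Cyp1b1 (-1.73) and Nqo1 (-1.11).

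Each group has 5 arrays, and small differences are missed at that number. On each array, 64.9 to 77.5% of red spots were well above background, so weak genes such as most interferons and Oas1g give bounds only. The slide block changed no call of a named gene beyond those given in the report. Whether red is lung on every array rests on the signals, and the groups rest on the scanner files. With those groups Cyp1b1, Ahrr and Nqo1, read as marks of smoke exposure, had differences of 1.96 to 3.06. With the deposited table as labelled all 3 were negative, with a median of -1.56.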
